A study of Rattus norvegicus with 6 samples.

Results

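The mRNA levels of 8 genes were followed across 6 RNA-seq libraries of rat hippocampal neurons in which cyclin Y (CCNY) was left alone, overexpressed or knocked down. The genes are Gpd1l, Slc35e3, Cse1l, Colgalt1, Cd164, Fn3k, Dnase1l1 and Fibcd1, 8 of the 17066 genes in the deposited table. They were chosen by their measured values in these same libraries, a strong drop in CCNY-shRNA from EGFP together with little or no change in CCNY-WT from EGFP. Their differences between conditions are therefore a description: no p-value is given for them, and where limma's calls among them are counted, nothing is read from the count. Tests are given for genes that did not enter this choice. These are genes of the same families or pathways, and the nearest genes of the table on either side of the 8 in the genome. The family and pathway lists were drawn up with earlier results of these data known, so their p-values are not free of selection.

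All cultures were primary hippocampal neurons of Sprague-Dawley rat embryos at embryonic day 18, infected with lentivirus on day 5 or 6 in vitro and lysed on day 14. The EGFP group (n = 2 libraries) received virus for EGFP alone, the CCNY-WT group (n = 2) virus for CCNY-WT-EGFP, and the CCNY-shRNA group (n = 2) virus for CCNY-shRNA-EGFP. EGFP, the lentiviral vector and the infection itself were thus common to the 3 groups. As far as the labels say, 1 hairpin construct was used, and none of the 6 libraries carried a hairpin without a target. The lysates held whole cultures, not sorted infected cells, and the labels do not say whether the 2 libraries of a group came from separate cultures, so the spread between them may be technical.

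A short hairpin RNA is cut by the cell into a small interfering RNA, which guides the silencing machinery to a fully matching mRNA and can also lower other mRNAs that match part of it. The sequence of the hairpin was not used here, so no match to the 8 genes was looked for. The 8 proteins act in several parts of cell biology, and some of them share the secretory pathway. Gpd1l is a relative of the NAD-dependent glycerol 3-phosphate dehydrogenase and Fn3k phosphorylates fructosamines, the sugar adducts of proteins, which then fall off. Slc35e3 is an orphan member of the family of nucleotide-sugar transporters. Colgalt1 adds galactose to hydroxylysine in collagens in the endoplasmic reticulum. Cse1l is the exportin that carries importin alpha back out of the nucleus. Cd164 is a sialomucin of the cell surface and of endosomes and lysosomes, Fibcd1 is a transmembrane receptor with a fibrinogen-like domain, and Dnase1l1 is a member of the DNase I family.

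RefSeq lists a start site for all 8 genes in the later build GRCr8, and the 250 bases before the start are shown for 4 of them, 2 with and 2 without a GC box, which 6 of the 8 carried. Capitals mark the letters CCAAT and GGGCGG, the core letters of the CCAAT box and of the GC box, on either strand. Gpd1l, the member with the largest difference in CCNY-shRNA, and Slc35e3 are shown for their GC boxes, Cse1l and Dnase1l1 for having none.
Gpd1l (chr8:123498949-123499198, minus strand): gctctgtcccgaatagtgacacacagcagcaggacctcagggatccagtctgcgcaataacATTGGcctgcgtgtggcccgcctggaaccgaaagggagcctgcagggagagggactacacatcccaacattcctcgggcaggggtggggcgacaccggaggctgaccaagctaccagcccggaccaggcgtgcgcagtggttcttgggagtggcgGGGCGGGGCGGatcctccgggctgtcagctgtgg
Slc35e3 (chr7:55236023-55236272, minus strand): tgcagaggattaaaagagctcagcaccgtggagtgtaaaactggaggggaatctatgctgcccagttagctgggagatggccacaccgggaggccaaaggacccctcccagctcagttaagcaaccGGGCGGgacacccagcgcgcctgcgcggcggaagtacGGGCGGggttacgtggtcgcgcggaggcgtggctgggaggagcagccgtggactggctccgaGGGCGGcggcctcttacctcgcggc
Cse1l (chr3:176059988-176060237, plus strand): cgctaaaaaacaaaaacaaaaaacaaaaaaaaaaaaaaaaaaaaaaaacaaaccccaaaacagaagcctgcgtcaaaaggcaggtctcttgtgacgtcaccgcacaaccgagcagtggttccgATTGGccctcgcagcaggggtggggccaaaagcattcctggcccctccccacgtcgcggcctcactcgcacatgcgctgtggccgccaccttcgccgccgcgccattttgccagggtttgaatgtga
Dnase1l1 (chrX:157216712-157216961, minus strand): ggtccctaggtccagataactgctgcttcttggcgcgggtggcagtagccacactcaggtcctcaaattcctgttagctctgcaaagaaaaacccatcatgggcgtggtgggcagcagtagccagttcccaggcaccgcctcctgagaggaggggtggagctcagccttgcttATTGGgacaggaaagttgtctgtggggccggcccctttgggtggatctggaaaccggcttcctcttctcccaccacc
Of 7 motifs searched on both strands, none was found in all 8 upstream windows. GGGCGG was found in 6 of 8, against 30.5% of the 33469 windows of the same length in the RefSeq table, which holds genes of every kind. CCAAT was found in 3 of 8 (34% of all windows), TGACG of the cAMP response element in 2 (18.2%), and CACGTG, the E-box, and CCGGAAG, an ETS core, in 1 each (5.59% and 7.27%). TATAAA (12.9%) and GCGCATGC, an NRF1 core (2.2%), were found in none. The GC content of the 8 windows ranged from 52.8% to 72.0% with a median of 63.4%, and the median of all windows was 51.2%. The 8 genes lie on 7 chromosomes. Cse1l and Fibcd1, the 2 that share one, are on chromosome 3.

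The targeted gene was first checked in every library. The FPKM (fragment counts scaled to transcript length and library size) of Ccny was 43.1 and 42.3 with EGFP, 108 and 109 with CCNY-WT and 5.98 and 6.19 with CCNY-shRNA, so each label fits its libraries. On this scale 14.3% of the EGFP level remained in CCNY-shRNA, and the insert and the endogenous transcript cannot be told apart. The number of reads per library is unknown. From the steps between low FPKM values, depth relative to EGFP replicate 1 was estimated at 0.818 to 1.33 over the 6 libraries. In CCNY-WT replicate 1, the gene Bc1 made up 15.1% of the summed FPKM, while the other libraries list it at 0. All 10 neuronal markers were measured, with summed FPKM of 4555 and 4646 with EGFP, 4472 and 4521 with CCNY-WT and 4603 and 4622 with CCNY-shRNA. Of 6 microglial markers, Cx3cr1 and Aif1 were listed at 0 in every library and the sum was at most 0.389. The 7 astrocyte markers summed to 535 and 574 with EGFP, 568 and 563 with CCNY-WT and 468 and 540 with CCNY-shRNA. Summed FPKM was 37.2 to 47.6 for 8 oligodendrocyte markers and 63.3 to 75.1 for 7 of vessels and meninges. It was 3.45 to 4.58 for 5 markers of dividing cells. Of these sets, 5, 2 and 2 markers could be tested, beside all 7 of astrocytes. Limma called 0 of them in CCNY-shRNA, where it called 0.746% of all genes tested, so 0 calls among so few says little. Lower in mean there were 5 of the 7 astrocyte markers (median log2 difference -0.13) and 4 of the 5 tested for oligodendrocytes (-0.12). The same held for 6 of the 10 neuronal markers, with a median of -0.04 and a range from -0.41 to 0.16. One neuronal marker, Gad2 of GABA synthesis, fell in CCNY-shRNA, from 170 and 173 to 129 and 129 (log2 difference -0.41, limma adjusted p = 0.0226), and lost this call when any 1 library was left out (limma adjusted p 0.0767 to 0.316). The part of these marker levels in the results below was not tested.

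In the CCNY-shRNA libraries each of the 8 genes lay below both EGFP and both CCNY-WT libraries. Of all genes tested, 24.3% were lower than EGFP in all 4 pairings of libraries, but the rule used this contrast. The level that remained ran from 40.8% of EGFP for Gpd1l to 60.5% for Cd164. In CCNY-WT the same genes lay between 66.7% and 103% of EGFP. Differences below are on the log2 scale after raising FPKM values under 1 to 1, as the study did, and each is a difference of the means of 2 libraries. The median of these differences over the 8 was -1.01 for CCNY-shRNA and -0.12 for CCNY-WT, and the median over all 10188 genes tested was 0 in both comparisons when rounded to 2 decimals. RNA from a whole culture cannot separate fewer cells of a type from less RNA per cell.

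**Figure D1:**
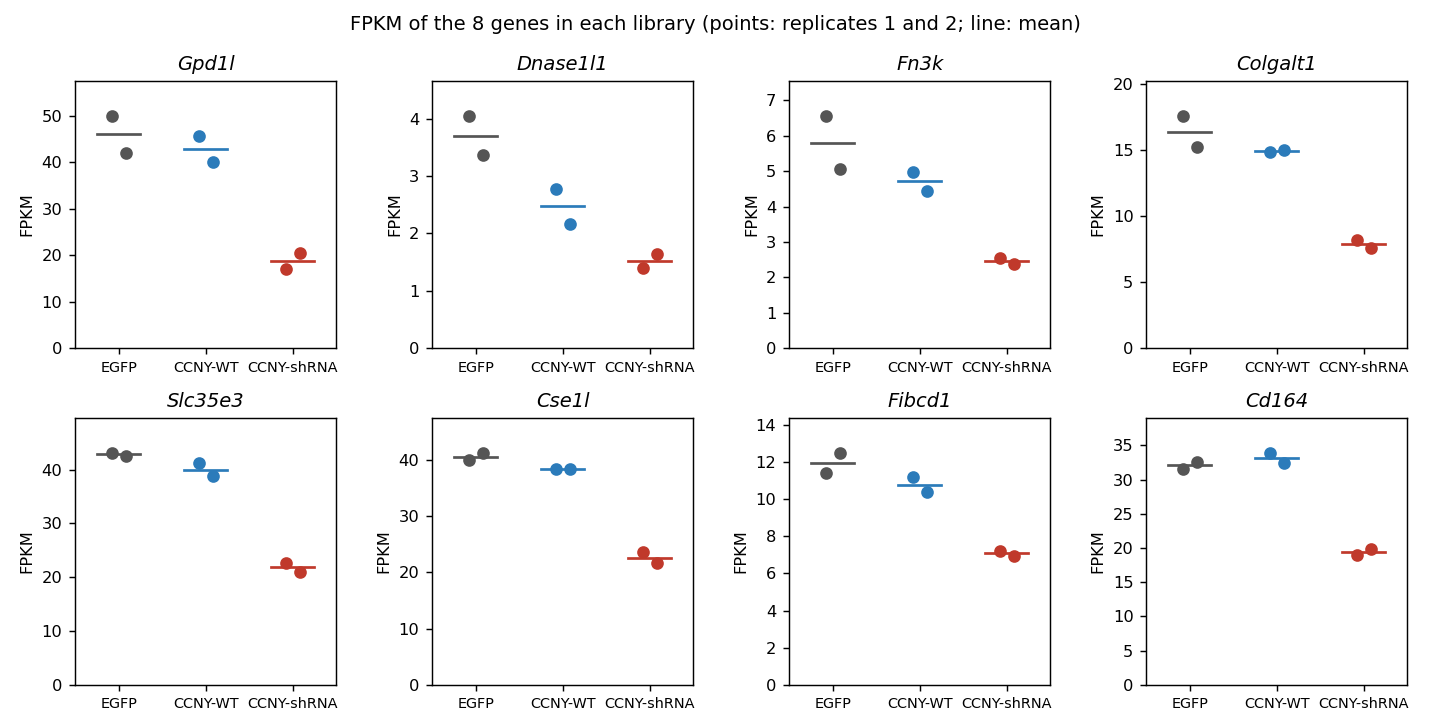
FPKM of each of the 8 genes (y axes, linear and starting at 0, with a scale for each gene) in the 2 libraries of EGFP, CCNY-WT and CCNY-shRNA, with lines at the mean; replicates 1 and 2 stand left and right. In every panel both CCNY-shRNA points lie below the other 4, and in Dnase1l1 the CCNY-WT points (2.77 and 2.17) also lie below those of EGFP.

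Gpd1l, related to a glycerol 3-phosphate enzyme, and Fn3k, which acts on sugar adducts of proteins, are described first. The FPKM of Gpd1l was 50.0 and 42.0 with EGFP, 45.7 and 40.1 with CCNY-WT and 17.0 and 20.5 with CCNY-shRNA. The EGFP and CCNY-WT libraries interleaved, and both CCNY-shRNA libraries stood well below them. The EGFP mean was 46.0 ± 5.62 (SD, n = 2) against 18.8 ± 2.44 for CCNY-shRNA, a log2 difference of -1.29 that ranged from -1.55 to -1.04 over the 4 pairings of libraries.
It was the fifth largest drop among the genes tested. Fn3k was expressed at a lower level, with 6.56 and 5.05 with EGFP, 4.98 and 4.45 with CCNY-WT and 2.53 and 2.39 with CCNY-shRNA. Here the 3 groups did not overlap, although CCNY-WT replicate 1 came close to EGFP replicate 2. The log2 difference was -1.23 in CCNY-shRNA (pairings -1.46 to -0.99) and -0.29 in CCNY-WT (-0.56 to -0.02).

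Slc35e3, Colgalt1 and Cd164 act in, or pass through, the secretory pathway. Slc35e3 had the tightest EGFP libraries, at 43.1 and 42.6, beside 41.1 and 38.8 with CCNY-WT and 22.7 and 20.9 with CCNY-shRNA. The level left was 50.9% of EGFP, and the log2 difference was -0.98 (pairings -1.04 to -0.91). Both CCNY-WT libraries were also below both EGFP libraries, but by only -0.10. Colgalt1 had 17.6 and 15.2 with EGFP, 14.9 and 15.0 with CCNY-WT and 8.17 and 7.60 with CCNY-shRNA. Its log2 difference was -1.05 in CCNY-shRNA (pairings -1.21 to -0.89) and -0.13 in CCNY-WT, where the closest libraries differed by -0.02. Cd164 was the 1 member with a higher mean in CCNY-WT than in EGFP. Its FPKM was 31.6 and 32.6 with EGFP, 33.9 and 32.5 with CCNY-WT and 19.0 and 19.9 with CCNY-shRNA. EGFP and CCNY-WT overlapped (log2 difference 0.05), and the log2 difference in CCNY-shRNA, -0.73 (pairings -0.78 to -0.67), was the smallest of the 8.

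Cse1l, the nuclear exportin, had 39.9 and 41.3 with EGFP, 38.4 and 38.4 with CCNY-WT and 23.6 and 21.6 with CCNY-shRNA. The log2 difference was -0.84 in CCNY-shRNA (pairings -0.93 to -0.76) and -0.08 in CCNY-WT, where the 2 libraries differed by a log2 SD of 0.00154. Fibcd1, the transmembrane receptor, had 11.4 and 12.5 with EGFP, 11.2 and 10.4 with CCNY-WT and 7.20 and 6.95 with CCNY-shRNA. Its 3 groups did not overlap, with log2 differences of -0.75 (pairings -0.85 to -0.66) and -0.15 (-0.27 to -0.02). Dnase1l1 was the weakest of the 8, with 4.05 and 3.36 with EGFP, 2.77 and 2.17 with CCNY-WT and 1.39 and 1.65 with CCNY-shRNA. Its log2 difference was -1.29 in CCNY-shRNA (pairings -1.54 to -1.03) and -0.59 in CCNY-WT (-0.90 to -0.28). Only 1.38% of the genes tested had a larger absolute difference in CCNY-WT. For Dnase1l1 the values thus go against a change limited to the knockdown, while the other 7 lay within 0.3 of EGFP in CCNY-WT. Fn3k was at the edge of this limit, at -0.29. It passed the limit with quantile normalization (-0.32), without CCNY-WT replicate 1 (-0.37) and without EGFP replicate 2 (-0.48), and stayed within it in the other alternatives.

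The order of the 8 differences was not resolved between neighbours. The ranges over the 4 pairings overlapped in all 7 neighbouring pairs of the order and in 15 of all 28 pairs. In CCNY-WT, 7 of the 8 means were below EGFP, and 6 of the 8 genes were lower in all 4 pairings, a pattern seen in 19.0% of the genes tested. Both comparisons use the same 2 EGFP libraries, so a high EGFP value lowers both differences, and the rule asked for small values in CCNY-WT, so nothing is read from this count. Directly between CCNY-shRNA and CCNY-WT, without EGFP, the log2 differences ran from -1.20 for Gpd1l to -0.61 for Fibcd1, with a median of -0.82. On this contrast Dnase1l1 differed by -0.70 and Fn3k by -0.94. All 8 were lower in all 4 pairings of these libraries, as were 21.7% of the genes tested, but the choice of the 8 fixes this contrast too.

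All 8 genes were among the 59 that limma called lower in CCNY-shRNA than in EGFP at an adjusted p under 0.05, which is 0.579% of the genes tested. The rule used this contrast, so nothing is read from the count. It also depended on single libraries: limma called 2 of the 8 without CCNY-shRNA replicate 1, 1 without CCNY-shRNA replicate 2, and 0 without EGFP replicate 1, EGFP replicate 2, CCNY-WT replicate 1 or CCNY-WT replicate 2. The differences themselves stayed between -1.43 and -0.68 for all 8 genes under all 15 alternative settings. With 2 libraries against 2, an exact permutation test cannot give a p under 0.333. In the direct comparison of CCNY-shRNA with CCNY-WT, 5 of the 8 were among the 20 genes called lower (0.196%), and Fn3k, Dnase1l1 and Fibcd1 were not. Low CCNY-shRNA values beside CCNY-WT values near EGFP were the ground of the choice, so nothing is read from this count either. Each of the 6 left-out libraries lowered this count too, to 2 without CCNY-shRNA replicate 1 and to 0 without any one of the others. In CCNY-WT against EGFP limma called 0 of the 8, and the 1 gene it called in all was Ccny itself, which was higher. Ccny was also among the 59 genes called lower in CCNY-shRNA and the 20 called lower in the direct comparison.

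The 8 genes were a selection from a longer run of like values. A log2 difference of -0.6 or less in CCNY-shRNA was found for 158 genes, 1.55% of those tested, with Ccny among them. Of these, 100 lay within 0.3 of EGFP in CCNY-WT (0.982%). Of the 100 genes, 44 had a mean FPKM of at least 5 in EGFP. The 8 genes included 7 of the 100, all 7 among the 44, and Dnase1l1 was the exception. By distance between log2 profiles centred on their own means over the 6 libraries, the 5 genes nearest to the mean profile of the 8 were Pcdh18, Plcd1, Slc5a7, S1pr1 and Rhbdf1, at 0.239 to 0.303. For scale, the 28 distances between pairs of members ran from 0.159 to 0.769. All 5 were weakly expressed, with S1pr1, a receptor for sphingosine 1-phosphate, the strongest at 6.74 and 6.95 with EGFP, 7.15 and 6.24 with CCNY-WT and 3.86 and 4.02 with CCNY-shRNA. Taken one by one, Fibcd1 was nearest to Nov (distance 0.0554), which had 38.7 and 43.4 with EGFP, 39.5 and 36.3 with CCNY-WT and 25.2 and 24.9 with CCNY-shRNA. Cd164 was nearest to Azin1, the antizyme inhibitor (0.0903), with 119 and 117 with EGFP, 121 and 122 with CCNY-WT and 72.4 and 75.2 with CCNY-shRNA. The nearest to Gpd1l was Itgb8, to Slc35e3 Slc5a7, to Cse1l S1pr1, to Colgalt1 Bora, to Fn3k St8sia6 and to Dnase1l1 Plcd1. These likenesses are over 6 libraries and rest on the values that chose the 8.

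**Figure D2:**
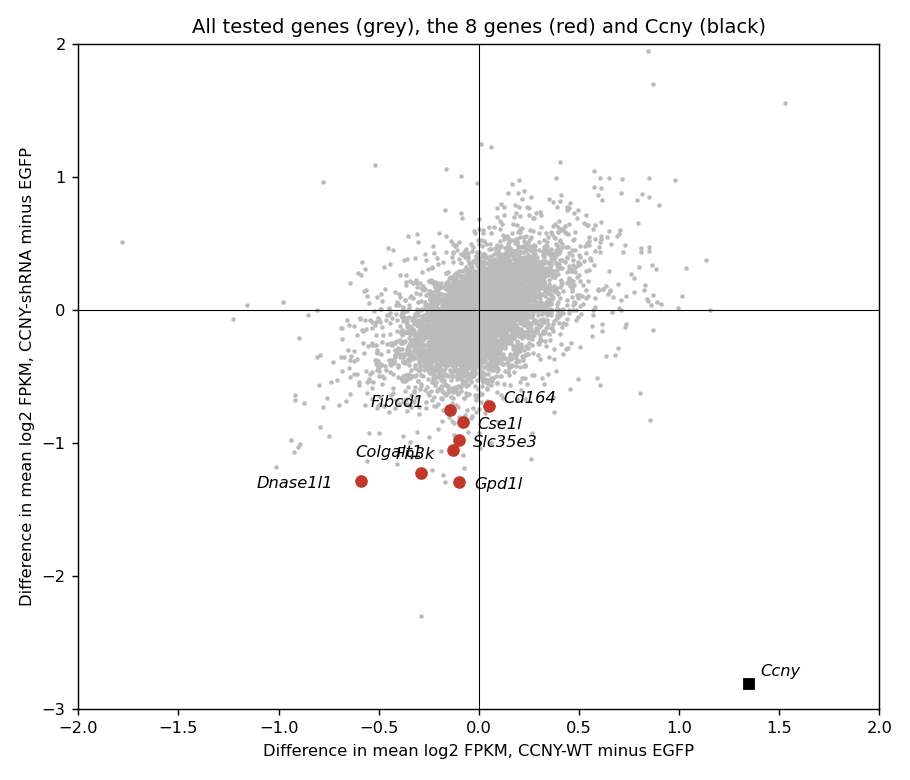
Differences in mean log2 FPKM from EGFP in CCNY-WT (x axis) and CCNY-shRNA (y axis) for the genes tested, with the 8 genes in red, Ccny as a black square and 6 genes outside the axes. The red points lie between -1.29 and -0.73 on the y axis, 7 of them within 0.3 of 0 on the x axis and Dnase1l1 at -0.59; both axes share the EGFP libraries.

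The nearest measured genes along the chromosome were then examined, to see whether they differed along with the members. For each member the nearest gene of the table on either side was taken from the RefSeq order, 16 genes in all. Of these, 12 had listed FPKM values high enough to be tested. For 8 of the 16, RefSeq lists no gene in between, and for the other 8 (Cmtm8, Stt3b, Mdm2, Rpl10, Taz, Smpd2, Cep57l1 and Lamc3) it lists 1 to 3 genes that were not in the table. None of the 12 passed limma's adjusted threshold in CCNY-shRNA. Of all genes tested, 0.746% passed in either direction, so 0 calls among so few says little. One, Nup107, had an unadjusted p under 0.05 and was higher in mean, beside 9.36% of all genes tested that were lower and 9.2% that were higher at that level. Their log2 differences ran from -0.26 to 0.45, with a median of -0.02. Fn3krp, the neighbour and closest relative of Fn3k, had 22.6 and 26.0 with EGFP, 24.6 and 26.6 with CCNY-WT and 21.5 and 24.9 with CCNY-shRNA. These libraries interleaved fully (log2 difference -0.07, standard error 0.107, limma adjusted p = 0.791), beside -1.23 for Fn3k. On the other side of Fn3k, Tbcd, a tubulin chaperone, differed by 0.03.
Cse1l lies between Arfgef2 and Stau1, which differed by 0.04 and -0.10 (limma adjusted p = 0.880 and 0.552). Slc35e3 lies between Mdm2, the ubiquitin ligase of p53, and the nucleoporin gene Nup107, and both were higher in mean, by 0.17 and 0.23 (limma adjusted p = 0.481 and 0.251). For Dnase1l1 the neighbours were Rpl10, a ribosomal protein gene (0.05), and Taz, the cardiolipin remodelling gene tafazzin (-0.11). On one side of Gpd1l, Stt3b of the oligosaccharyltransferase had 24.1 and 29.9 with EGFP, 29.4 and 25.7 with CCNY-WT and 22.1 and 22.9 with CCNY-shRNA (log2 difference -0.26, limma adjusted p = 0.289). The neighbours of Cd164, Smpd2 and Cep57l1, differed by -0.15 and -0.06. Beside Colgalt1, Fam129c was near 1 FPKM and differed by 0.45 (limma adjusted p = 0.473). Unc13a was listed at 0 in every library, which need not mean that the cultures did not express it. Both neighbours of Fibcd1 (Qrfp and Lamc3) and Cmtm8 beside Gpd1l were under 1 FPKM throughout and were not tested.

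**Figure D3:**
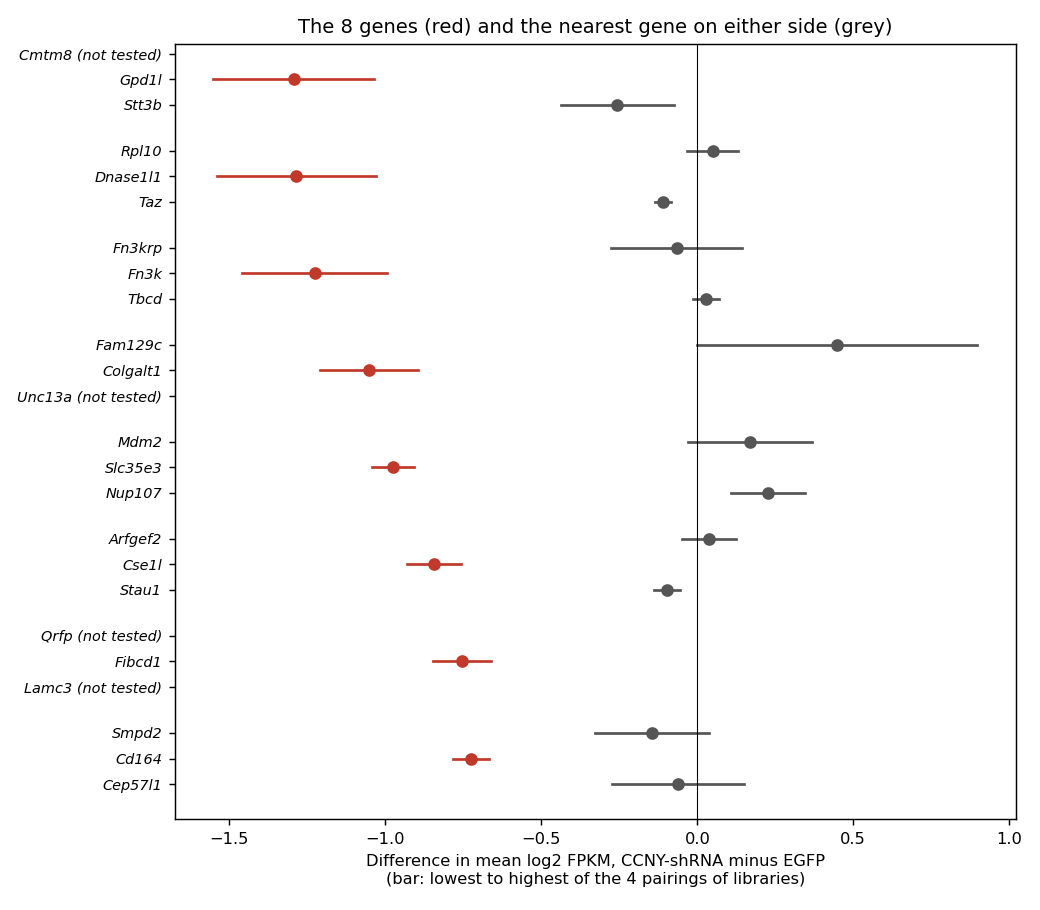
Difference in mean log2 FPKM between CCNY-shRNA and EGFP (x axis) for each of the 8 genes (red) and the nearest gene of the table on either side (grey), with bars from the lowest to the highest of the 4 pairings of libraries. Every red bar ends below -0.66, and no grey point lies below -0.26, a contrast that the choice of the 8 favours. Of the neighbours, 4 were not tested.

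Genes of the families and pathways of the 8 were examined next. Because the 8 were chosen for large differences, most other genes lie nearer to EGFP, and nothing is read from that contrast. The 8 lists, drawn up from general knowledge but with earlier results of these data known, held 94 genes that could be tested. In CCNY-shRNA limma called 1 of the 94 lower and 0 higher at an adjusted p under 0.05, with 13 lower and 9 higher at an unadjusted p under 0.05. Among all genes tested, 0.579% were called lower and 0.167% higher, and at an unadjusted p 9.36% were lower and 9.2% higher. With calls this rare, 0 calls within a single list says little. The median log2 difference of the 94 was -0.06, and the range -0.62 to 0.60. The medians of the 8 lists ran from -0.27 for the relatives of Fibcd1 and -0.22 for those of Cd164, with 5 genes each, to 0.07 for those of Dnase1l1. In CCNY-WT limma called 0 of the 94, with 3 lower and 4 higher at an unadjusted p under 0.05. Of all those tested, limma called 0.0% lower and 0.00982% higher, and 3.0% were lower and 3.83% higher at an unadjusted p.

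Slc35e3 belongs to the SLC35 family, the carriers that bring nucleotide sugars into the Golgi and endoplasmic reticulum. Of 21 tested relatives 17 had a lower mean in CCNY-shRNA, with a median of -0.11 where that of all genes tested was 0. In CCNY-WT 15 of the 21 were lower in mean too, with a median of -0.06. Both comparisons use the same EGFP libraries, so these leans are not independent of each other. Whether the lean is particular to the knockdown was not tested. The 1 that fell past the threshold, Slc35e2b, had 23.3 and 25.0 with EGFP, 23.8 and 25.5 with CCNY-WT and 16.8 and 16.8 with CCNY-shRNA. Its log2 difference was -0.52 (standard error 0.0828, limma adjusted p = 0.0439), with the CCNY-shRNA libraries below all others. This call was lost when any 1 of the 6 libraries was left out (limma adjusted p 0.0990 to 0.337) and held in 4 of all 15 alternatives. The other members of the same subfamily, Slc35e1 and Slc35e4, differed by -0.11 and -0.07 (limma adjusted p = 0.553 and 0.690). Slc35a3, the carrier of UDP-N-acetylglucosamine, differed by -0.37 (limma adjusted p = 0.196), and Slc35g3, near 1 FPKM, by 0.42 (limma adjusted p = 0.439).

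Cse1l works with importin alpha and the GTPase Ran. None of 25 tested transport genes passed limma's adjusted threshold in CCNY-shRNA, 7 had an unadjusted p under 0.05, and the median was -0.05. Importin beta, Kpnb1, differed by -0.03, and the cargo of Cse1l, Kpna2 among the importin alphas, by -0.15 (limma adjusted p = 0.798 and 0.381). Kpna5, another importin alpha, came nearest to Cse1l in size. It had 9.09 and 7.80 with EGFP, 7.21 and 8.52 with CCNY-WT and 5.83 and 5.12 with CCNY-shRNA (log2 difference -0.62, limma adjusted p = 0.101). In the other direction Nutf2, the import factor of Ran, had 46.7 and 50.3 with EGFP, 48.8 and 55.9 with CCNY-WT and 61.6 and 65.1 with CCNY-shRNA (0.39, limma adjusted p = 0.0777). Ranbp1, a cofactor of Ran, differed by 0.26 (limma adjusted p = 0.179).

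The lists of Gpd1l and Fn3k had median log2 differences of 0.03 and 0.06 in CCNY-shRNA. Gpd1, the paralog of Gpd1l, had 11.5 and 11.9 with EGFP, 10.7 and 11.1 with CCNY-WT and 10.2 and 10.2 with CCNY-shRNA (log2 difference -0.20, standard error 0.104, limma adjusted p = 0.350). The mitochondrial partner of the glycerol phosphate shuttle, Gpd2, differed by -0.10, and glycerol kinase, Gk, by 0.15. Over the 11 genes of this list the differences ran from -0.20 to 0.15, with 0 at an unadjusted p under 0.05. Of the 7 genes listed with Fn3k, limma called 0, and 1, the glyoxalase Glo1, had an unadjusted p under 0.05. Glo1 differed from EGFP by 0.16 in both CCNY-WT and CCNY-shRNA (limma adjusted p = 0.183 in CCNY-shRNA). Khk, the fructose kinase, differed by 0.20, and Ager, the receptor for glycation products, by -0.29.

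The remaining lists held both well and weakly expressed genes. Of 14 tested genes of collagen modification limma called 0 in CCNY-shRNA, with 2 at an unadjusted p under 0.05, Bmp1 (log2 difference -0.33) and P4ha2 (-0.27). Plod3, which like Colgalt1 modifies hydroxylysine, differed by 0.06. P4ha3 was higher in mean in CCNY-shRNA by 0.38 (limma adjusted p = 0.338) and in CCNY-WT by 1.14 (0.272). Of the 5 genes listed with Cd164 limma called 0, with 3 at an unadjusted p under 0.05 that differed in direction. The sialomucin Podxl2 had 109 and 113 with EGFP and 94.4 and 96.3 with CCNY-shRNA (-0.22, limma adjusted p = 0.101). Cxcl12 differed by -0.49 and its receptors Cxcr4 and Ackr3 by -0.38 and 0.60, with the libraries of Cxcr4 overlapping.
Among the 6 tested DNases and their regulators limma called 0, with 2 at an unadjusted p under 0.05, both higher in mean. Trex1, a 3′ exonuclease, had 7.23 and 5.86 with EGFP, 9.70 and 9.76 with CCNY-WT and 9.35 and 9.48 with CCNY-shRNA (0.53, limma adjusted p = 0.112), and Dffa differed by 0.32. Endog, a mitochondrial nuclease, differed by -0.25, with 6.95 and 2.76 in the CCNY-shRNA libraries. Dnase1 and Dnase1l3, the nearest relatives of Dnase1l1 in the table, stayed under 1 FPKM. Of 5 tested proteins with a fibrinogen-like domain limma called 0, and 0 had an unadjusted p under 0.05. Tenascin-R, Tnr, a matrix protein of the brain, differed by -0.27, Mfap4 by -0.54 and Angptl6 by 0.43 (limma adjusted p = 0.277, 0.384 and 0.520).

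**Figure D4:**
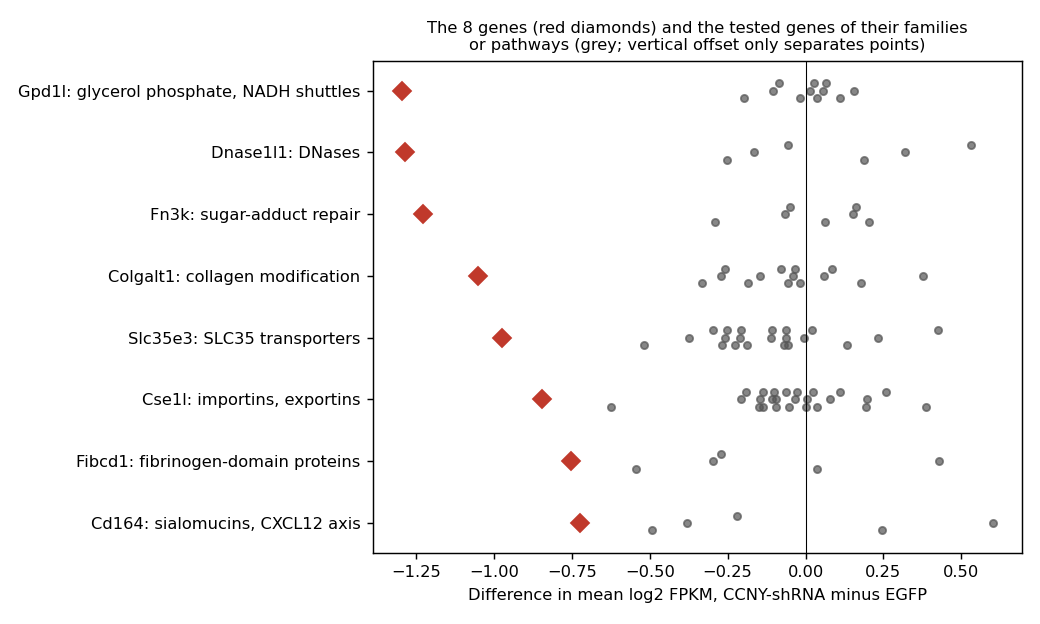
Difference in mean log2 FPKM between CCNY-shRNA and EGFP (x axis) for the 8 genes (red diamonds) and the 94 tested genes of their families or pathways (grey points), 1 row for each list. The grey points lie between -0.62 and 0.60, and in every row the diamond lies left of all of them, a contrast that the choice of the 8 favours.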

How the data were processed

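The authors mapped paired-end reads with TopHat2 (rat build rn4) and computed expression with Cufflinks (2.2.1 in the submitters' processing notes). The deposited table gives FPKM values of 17066 genes in 6 libraries, without read counts. The annotation, the strand setting and any scaling between libraries are not given in the sources used here. As in the study, values under 1 FPKM were raised to 1 before taking log2. The 10188 genes that reached 1 FPKM in 2 libraries were fitted with limma 3.58.1 in R 4.3.3 (eBayes with a trend, all 6 libraries), and p-values were adjusted over all of them (Benjamini-Hochberg, called under 0.05). In simulated data for CCNY-shRNA against EGFP, 200 of 200 genes changed by 1 log2 unit were recovered, with 9 false calls among 10188 genes. The changed genes were all more strongly expressed than Fn3k and Dnase1l1. The simulated spread followed 1 smooth trend with expression, without the further variation between genes of real data. The recovery therefore checks that the fit runs as meant and is no measure of its power in these libraries. Depth was estimated as the most common ratio of values under 0.3 FPKM.

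The members and the gene lists were chosen with earlier results of these data known. The genes named are Ccny, the 8 members, their nearest genes in the table, the genes nearest in profile and, from each list, genes past the threshold, close paralogs and up to 3 with large differences. Bc1, Kpnb1, Kpna2, Gpd2, Plod3, Slc35e1, Slc35e4, Podxl2, Tnr and the marker genes were named for their roles after values were seen. Neighbours, overlaps and promoters came from RefSeq (GRCr8, used for names, order and sequence). All 8 members matched it, and none overlapped another gene of the table there. Figures were drawn with matplotlib 3.10.9 in Python 3.11.15. Alternatives changed the log offset (1 or 0.1 added), the filter, the scaling, the estimate of the spread, the replicate block and the libraries included. A list of RNA-sensing genes is not reported here.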

Additional observations from a re-analysis of the deposited data

How the results depend on the processing

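The differences of the 8 genes kept their sign in CCNY-shRNA under every alternative, while counts of calls did not hold. The 76 genes called in CCNY-shRNA against EGFP became 2 without the filter, 1 without the trend, 1 with the libraries of the 2 conditions alone, 39 with the replicate block, and 1 to 7 with 1 library left out. The 22 called between CCNY-shRNA and CCNY-WT became 2, 1 and 1 under the first 3 of these and 1 to 8 with 1 library left out. The 1 gene called in CCNY-WT became 3 with the filter on mean FPKM or with log2(FPKM + 1), and 0 to 1 with 1 library left out. The 1 related gene called in CCNY-shRNA became 0 without the filter, without the trend, with 2 conditions alone, with the replicate block, with upper quartile scaling, and with any library left out (0 to 0). Of the 8 genes, limma called at least 6 in 6 of 15 alternatives, 6 of them with the replicate block, and 0 in 7 alternatives. The cause was not tested. The median difference of the 8 in CCNY-shRNA was -0.92 with log2(FPKM + 1), and -1.07 to -0.96 with 1 library left out. Differences between replicates 2 and 1 correlated by 0.0377 to 0.0538 across conditions, so the replicate numbers were not taken as pairs. With 2 libraries a group and unknown depth, small differences cannot be resolved.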

Other observations

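Besides 7 of the 8 genes, 12 further genes were called lower in CCNY-shRNA by limma, differed there by -0.6 or less and lay within 0.3 of EGFP in CCNY-WT. They were named after their values were seen, and no test is drawn from them. These were Azin1, Doc2b, Itgb8, Itgbl1, Megf9, Mpzl1, Nap1l3, Nov, Rasgrp2, Sstr1, Thoc7 and Tmod1. Itgb8, an integrin subunit, kept 40.8% of its EGFP level, close to Gpd1l, but at 2.62 FPKM in EGFP. Sstr1, a somatostatin receptor, kept 55.8%, Rasgrp2, a Ras family exchange factor, 59.6%, and Doc2b, a calcium sensor of vesicle release, 61.7%. The other 8 kept 60.9% to 65.7%, with EGFP means from 19.2 FPKM for Tmod1 to 118 FPKM for Azin1.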
